A study of Mus musculus with 2 samples.

Results

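The genes described here encode molecular chaperones, chaperonins and peptidyl-prolyl isomerases, the proteins that help other proteins fold. They were chosen by name alone: probe sets carrying a single gene symbol of the Hsp, Dnaja to Dnajc, Cct2 to Cct8, Tcp1, Fkbp, Ppia to Ppih, Pdia, Calr, Canx or Bag1 to Bag6 series, without the Hspg genes. The rule found 115 probe sets of 12488 on the array, which belong to 82 genes of 8251. The rule uses no expression value, but the members were chosen with earlier results of these data known. A further 4 probe sets, for Ppia, Ppih and Dnajc19, were left out because each also carries the symbol of a second gene or a pseudogene. Hsp90ab1 was not analysed here.

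The tissue was E14.5 cerebral cortex from mouse embryos of the NMRI strain. Wild type cortex was compared with cortex homozygous for a loss of Pax6 (Pax6-/-), to find genes downstream of this transcription factor of the cortical progenitor zone. Each genotype is represented by 1 array, although the submitters' design describes RNA of 3 embryos for each; pooling of the embryos and the allele are not stated. Both groups share the strain, stage and tissue. With 1 array per genotype there is no replicate check, no p-value is given, and differences are described by size.

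Values are MAS5 signals, a linear brightness in arbitrary units summarised over the probes of a probe set. A log2 ratio is log2(signal + 81.5) in the mutant minus the same in wild type, centred so that the median of the probe sets above the filter is 0; it understates the difference of dim genes. A gene is represented by its brightest probe set, and genes below a mean signal of about 166 are kept apart as too dim. Where a pair of signals is given, wild type comes first and the mutant second, and a single value after a gene is its log2 ratio. A difference is called 2-fold when the log2 ratio is at least 1 in size. The only measure of error is technical: the spread of the ratio among a gene's own probe sets. With the genes above the filter divided into 3 equal groups by signal, it was 0.82 log2 units in the dim group, 0.60 in the middle group and 0.46 in the bright group. Differences between embryos are not part of it, nor are errors of RNA preparation, labelling or array that a gene's probe sets share.

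For Pax6 itself the wild type signal was 1169 and the mutant signal 446.7 (log2 ratio −1.29); the position of its probe set relative to the mutation is not stated, so this is a limited check of the labels. The cortical label was met by neuronal markers: 8 of the 11 listed were on the array and all 8 were above the filter, Tbr1, Neurod2 and Neurod6 among them. Their signals summed to 38162 on the wild type and 28643 on the mutant array, those of 7 cortical progenitor markers to 18022 and 14344, and those of 7 subpallial markers to 1418 and 11909. Among cells from outside the neural lineage, summed signals were 19237 and 17392 for 10 erythroid markers, 1885 and 2271 for 9 vascular, 6723 and 6848 for 12 meningeal and 2317 and 3765 for 10 microglial markers. Sums follow the brightest genes, and the progenitor list includes Pax6 itself. In that list Eomes went from 2535 to 167 and Neurog2 from 3489 to 876.9, while Sox2 went from 2304 to 5042 and Nes from 3461 to 4035. The progenitor sum is thus not a general fall. Most of the subpallial sum in the mutant came from Dlx1 (161.9 and 5982) and Dlx2 (178.6 and 4180). Above the filter, 0 neuronal markers were higher and 8 lower, 2 and 5 progenitor, and 4 and 1 subpallial. The counts were 4 and 3 for erythroid, 2 and 2 for vascular, 5 and 3 for meningeal and 4 and 2 for microglial markers. No marker was at the lowest signal of 1.0. The tissue is a mixture, so fewer cells of a type and less RNA per cell cannot be told apart, and the part of these mixtures in the values below was not tested.

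Chaperones of the Hsp70 class bind exposed hydrophobic stretches in cycles driven by ATP, started by J proteins (Dnaj genes) and ended by nucleotide exchange factors such as Hsp110 and the BAG proteins. Hsp90 acts later on near-native clients, and the ring-shaped chaperonins enclose a client: TRiC in the cytosol, which folds actin and tubulin, and Hsp60 with Hsp10 in mitochondria. Prolyl isomerases (FKBPs and cyclophilins) and protein disulfide isomerases speed slow steps of folding. Cells raise cytosolic and mitochondrial chaperones through heat shock factors, which bind heat shock elements, and chaperones of the endoplasmic reticulum (ER) through the unfolded protein response, which acts through ER stress response elements. In the developing cortex, chaperones are background machinery of proliferating progenitors and growing neurons.

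Some promoters of these genes hold an element of either kind, and they are shown because the elements are how each stress pathway is known to reach its genes. The ER stress response element was searched as CCAAT, any 9 bases and CCACG, on both strands of the RefSeq promoters (GRCm38.p6), from 250 bases before to 50 bases after each start site. Of 82 genes, 71 had a promoter in that table. The element was found in 6 of the 71 (8.45%), against 37 of 27025 genes in the whole table (0.137%). All 6 encode ER proteins, out of 18 ER genes with a promoter. Capitals mark the fixed letters of the element, which is written in its own direction, with the strand after the coordinates.

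Hspa5, chr2:34772017-34772051, plus strand: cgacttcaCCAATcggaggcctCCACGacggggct
Hsp90b1, chr10:86705630-86705664, minus strand: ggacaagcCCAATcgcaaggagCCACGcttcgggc
Hsp90b1, chr10:86705525-86705559, plus strand: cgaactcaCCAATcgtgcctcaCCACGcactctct
Canx, chr11:50325792-50325826, minus strand: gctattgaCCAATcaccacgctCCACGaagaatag
Pdia6, chr12:17266483-17266517, plus strand: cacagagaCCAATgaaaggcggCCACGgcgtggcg
Calr, chr8:84847067-84847101, plus strand: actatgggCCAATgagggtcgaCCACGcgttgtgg
Dnajc3, chr14:118937819-118937853, plus strand: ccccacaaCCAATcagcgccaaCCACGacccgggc

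A heat shock element of alternating units, GAA, TTC and GAA with any 2 bases between neighbours, on either strand, was found in 4 of the 71 genes (5.63%), against 179 of 27025 (0.662%). The 4 are Hspd1, Hspe1, Dnajb6 and Hsph1, and none of them is an ER gene. Hspd1 (Hsp60) and Hspe1 (Hsp10) are neighbours transcribed away from each other, and the same element lies between them. There the element matched on both strands at overlapping positions, and 1 match is shown. In Hsph1 the element lay partly or wholly beyond the start site, and its letters are not shown. No promoter of a member gene held both elements. A match is a description of letters only.

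Hspd1 and Hspe1, chr1:55088056-55088084, plus strand: ccgttctaGAAccTTCcgGAAggccccgc
Dnajb6, chr5:29735844-29735872, plus strand: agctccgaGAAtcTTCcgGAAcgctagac

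The log2 ratios of both groups of genes had mixed signs, and most were small. Of the ER stress element genes above the filter, the log2 ratios were −0.17 for Hspa5, −0.14 for Hsp90b1, −0.01 for Pdia6 and 0.17 for Canx. Of the heat shock element genes they were −0.63 for Hspd1, −0.42 for Hsph1, 0.06 for Dnajb6 and 0.09 for Hspe1. All except that of Hspd1 were smaller than the technical spread of the bright group, 0.46. Those of Hsp90b1 and Pdia6 changed sign under quantile and loess scaling. The signs therefore cannot show whether a group shared a direction. The pair that shares an element, Hspd1 and Hspe1, had ratios of opposite sign on these arrays. Signals were 3421 in wild type and 2253 in the mutant for Hspd1, and 1632 and 1795 for Hspe1. The Hspe1 ratio of 0.09 lies within the technical spread, so its sign is not settled.

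**Figure D1:**
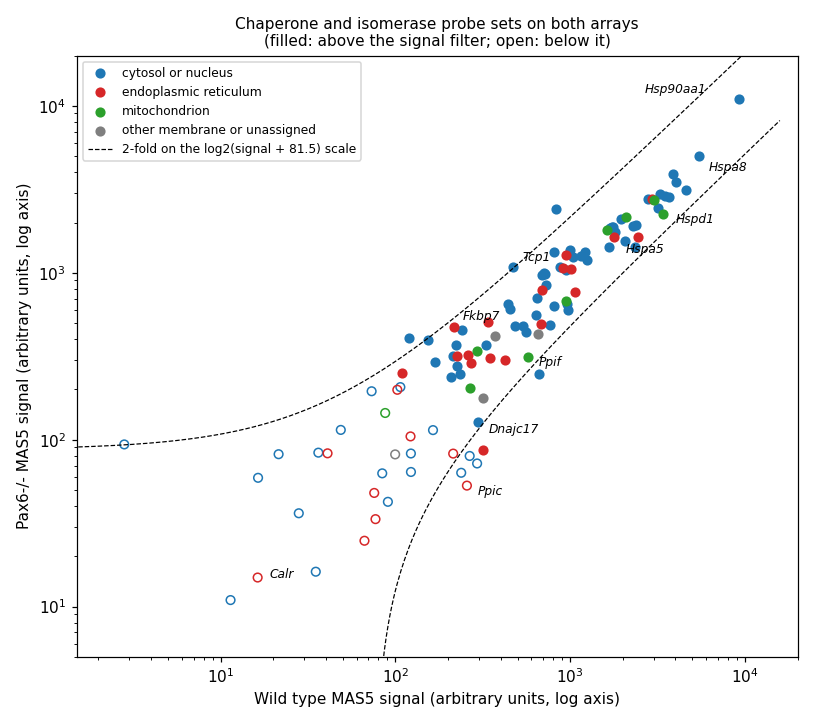
MAS5 signal of each of the 115 probe sets in wild type (horizontal, log axis) and Pax6-/- cortex (vertical, log axis), 1 array each; colours give the compartment, open circles lie below the signal filter, and dashed curves mark a 2-fold difference on the log2(signal + 81.5) scale. Most filled points lie between the curves, and Tcp1 is the only labelled gene above the filter that lies past them.

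Across the chaperone network, few genes were 2-fold apart between the arrays. Of 82 genes, 65 were above the filter. Of these, 30 were higher and 35 lower in the mutant, with a median log2 ratio of −0.05, against −0.02 over all 5587 genes above the filter. A single gene, Tcp1, reached 2-fold, which is 1.54% of the 65, while 10.5% of all genes above the filter were 2-fold apart (5.05% higher and 5.48% lower, or 282 and 306 genes). That split was 219 and 357 after quantile scaling and 204 and 370 after loess scaling. At 1.5-fold the counts were 4 higher and 8 lower, or 18.5%, against 29.2% of all genes. The SD of the log2 ratios was 0.41 over the 65 genes and 0.62 over all genes. Their median size was closer, 0.32 and 0.37, so the typical member differed about as much as genes at large. With the 17 dim genes included, 37 of 82 were higher and 45 lower, and 1 was 2-fold higher and 3 were 2-fold lower, where 12.2% of all 8251 genes were 2-fold apart.

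Signal strength moved with these shares. Of the 65 genes, 30 were in the bright group, at signals above about 863, 22 in the middle group and 13 in the dim group, below about 386. In the bright group 0 of 30 were 2-fold apart, against 3.06% of all genes there. In the middle group 1 of 22 was, against 6.98%, and in the dim group 0 of 13, against 21.5%. The median size of the log2 ratio was 0.19 for the members and 0.28 for all genes in the bright group. It was 0.41 and 0.34 in the middle group and 0.46 and 0.52 in the dim group. The median log2 ratio of all genes also moved with signal: over 10 equal groups it was 0.19 in the dimmest and −0.27 in the brightest. That brightest group held 16 of the 65 genes, with a median of −0.18. Under quantile or loess scaling, which remove this trend, 13 and 14 of the 65 genes changed sign, each with a log2 ratio of at most 0.24 in size. The median of the 65 was 0.03 under both.

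**Figure D2:**
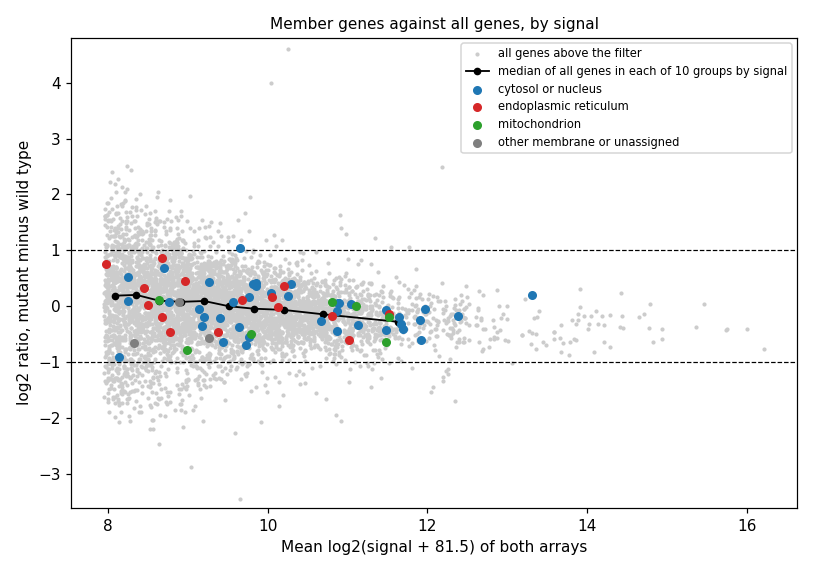
log2 ratio (mutant minus wild type) against the mean log2(signal + 81.5) of both arrays for 5587 genes above the filter (grey), with the 65 chaperone and isomerase genes coloured by compartment; the black line joins the medians of all genes in 10 groups by signal, and dashed lines mark 2-fold. The line runs from 0.19 on the left to −0.27 on the right, most coloured points lie between the dashed lines, and Hsp90aa1, the coloured point farthest right, lies above 0.

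In the cytosol and nucleus, 40 of 51 genes were above the filter, 18 higher and 22 lower, with a median of −0.06 (0.05 under quantile and loess scaling). The constitutive Hsp70, Hspa8, went from a wild type signal of 5486 to a mutant signal of 5008, and its log2 ratio of −0.18 became positive under both of those scalings. Of its relatives of the Hsp110 type, Hsph1 (Hsp110) was at 3186 and 2432, a log2 ratio of −0.42, and Hspa4l at 771 and 484, a log2 ratio of −0.64. Both ratios stayed negative under all 9 alternatives, although removing the filter and changing the probe set rule could not alter them. These differences were about as large as the technical spread of their signal groups, 0.46 and 0.60.

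Hspa4, the other Hsp110 relative described, was measured by 5 probe sets that did not give 1 answer. The brightest went from 1665 to 1432, a log2 ratio of −0.25, while the other 4 were higher in the mutant, at 0.07, 0.17, 0.53 and 1.23. The last of these rested on a wild type signal of 119.3, below the filter level. The stress-inducible Hsp70 genes were dim on both arrays: Hspa1a had signals of 122.8 and 64.04 and Hspa1b of 28.01 and 36.23. Those genes are near-identical copies, so their probe sets may not separate them. Hspa14, a ribosome-associated Hsp70, was 2-fold lower below the filter, at 266.2 and 79.88.

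Hsp90aa1, the inducible cytosolic Hsp90, went from 9257 to 11039. Its log2 ratio was 0.21, and its second probe set was at 0.39. The ratio was positive under all 9 alternatives, reaching 0.53 under quantile and loess scaling, although removing the filter could not change it. Of 53 other genes at least as bright, 4 were higher in the mutant, and their median log2 ratio was −0.38; this comparison was chosen after the values were seen. The technical spread of the bright group as a whole was 0.46, and the size of the difference lies within it. That spread was not estimated for the brightest genes alone. Small heat shock proteins, which hold unfolded clients, were few: Hspb2 was at 0.44, Hspb8 at −0.34, and Hspb1 (Hsp25) was below the filter, at 73.13 and 195.

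J proteins made up the largest family. Over all 23 of them above the filter, the median size of the log2 ratio was 0.16. It was 0.37 over all genes above the filter, without matching for signal. In the cytosol and nucleus 14 of 16 were above the filter, 9 higher and 5 lower, with a median of 0.06 and a median size of 0.09. Dnaja1, a main Hsp70 partner, had signals of 2804 and 2767, and the stress-responsive Dnajb1 of 725 and 849. Dnajb6, which holds back aggregation, was at 1727 and 1870 on its brightest probe set, although the other was at 0.62. Dnajc7 was at 1758 and 1890, the splicing-associated Dnajc8 at 3902 and 3923 and the histone-binding Dnajc9 at 1962 and 2085, log2 ratios between −0.04 and 0.05. The ribosome-bound Dnajc2 was at 0.37 and 0.32 on its probe sets. Dnaja2 was at 536.6 and 477.2, Dnajb2 at 331.3 and 370.9 and Dnajb3 at 483.4 and 481.5. Dnajb4 (164.2 and 114.1) and Dnajb5 (84.11 and 62.84) were below the filter.

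At the ends of the family stood Dnajc21, which acts in ribosome production, at 241.6 and 455 (log2 ratio 0.69), and Dnajc17, a nuclear protein linked to splicing, at 295.3 and 127.6 (log2 ratio −0.90). Dnajc17 passed 2-fold in 3 alternatives, at −1.04 under quantile scaling, −1.09 under loess scaling and −1.26 without a pseudocount. Its mutant signal was below the filter level, so it passed through its wild type signal. The technical spread of the dim group, which holds both genes, was 0.82.

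**Figure D3:**
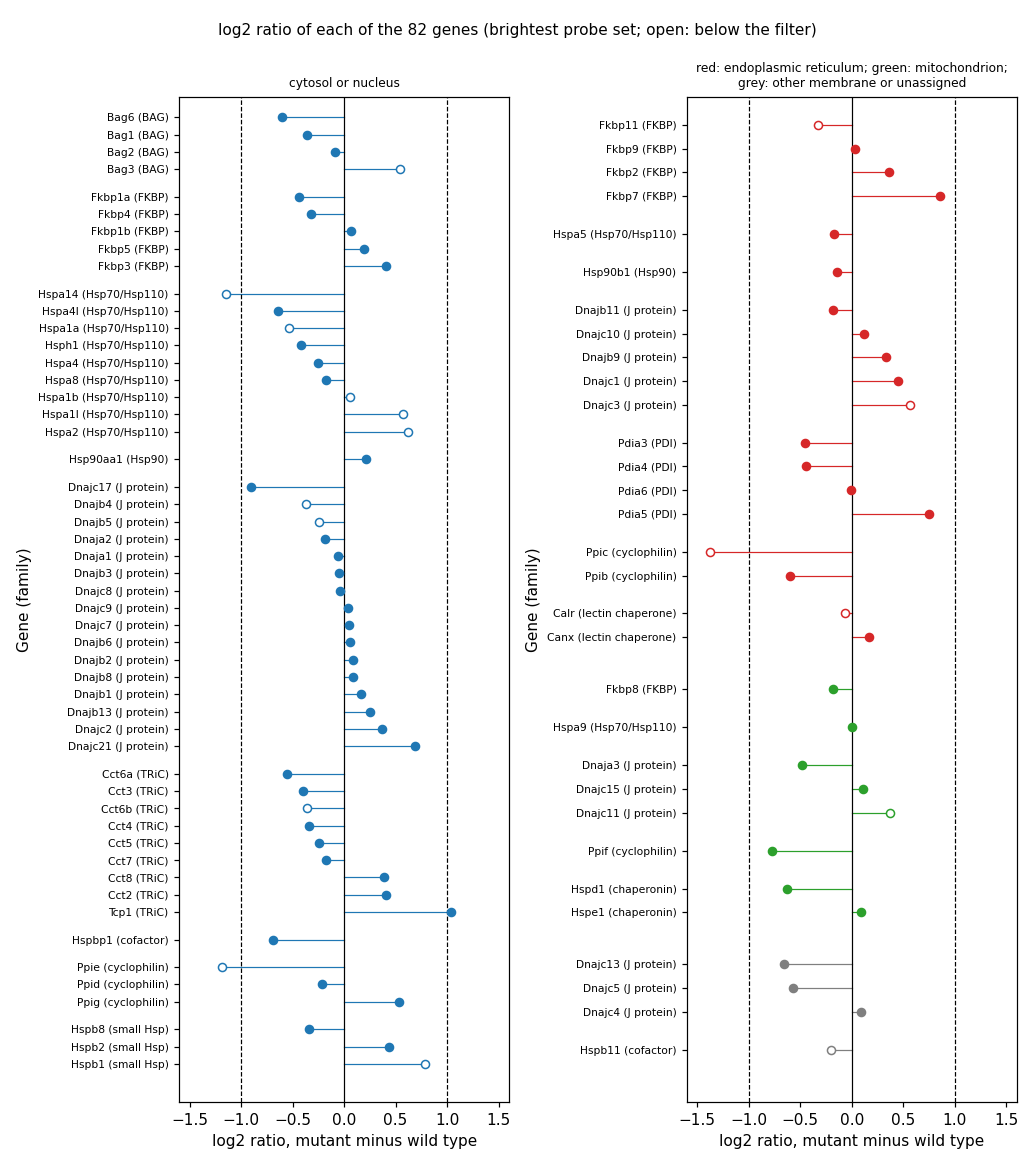
log2 ratio (mutant minus wild type, horizontal) of the brightest probe set of each of the 82 genes, grouped by compartment and family; filled circles are above the signal filter, open ones below it, and dashed lines mark 2-fold. Tcp1 is the only filled circle past 2-fold, and the open circles past it are Hspa14, Ppie and Ppic.

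TRiC, the cytosolic chaperonin, has 8 kinds of subunit encoded by Tcp1, Cct2 to Cct5, Cct6a, Cct7 and Cct8, which assemble in fixed proportion. All 8 were above the filter, and their log2 ratios were split: 3 were higher and 5 lower. Tcp1 rested on signals of 471.2 and 1088, a log2 ratio of 1.04 (2.05-fold). Cct2 followed at 686.8 and 968.5 (0.41) and Cct8 at 992.9 and 1376 (0.39). Lower were Cct7 at 3277 and 2971 (−0.18), Cct5 at 4020 and 3513 (−0.24), Cct4 at 2393 and 1937 (−0.34), Cct3 at 3668 and 2848 (−0.40) and Cct6a at 957.6 and 650 (−0.55).

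The median of the TRiC subunits was −0.21, and 0.02 after loess scaling, where 5 were higher and 3 lower. Several subunits had probe sets that disagreed. A second Cct3 probe set was at −0.30 but the third, which shares probes within a family, went from 829.5 to 2415, a log2 ratio of 1.41. The brightest Cct3 probe set is also marked by its name as holding shared probes, of another class. The brightest Cct6a probe set shares probes within a family too, and the other was at 0.98, from 153.7 to 397.5. That other one passed the filter only through its mutant signal, so a higher value was built into its passing. The other Cct5 probe set, below the filter, was at −1.33. The second Tcp1 probe set was near the floor, at 11.4 and 10.94, so the 2-fold call of Tcp1 rests on 1 probe set, against a technical spread of 0.60; it was short of 2-fold, at 0.85, with the larger pseudocount. Cct6b, a testis form of the sixth subunit, was below the filter.

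BAG proteins release clients from Hsp70, and 3 of their 4 genes were above the filter. Bag1 was at 812 and 635.6, Bag2 at 1815 and 1761 and Bag6 at 4623 and 3129, log2 ratios of −0.36, −0.09 and −0.60; Bag2 became positive under quantile and loess scaling. Bag6, which guards newly made membrane proteins, had 3 of 4 probe sets lower, at −0.60, −0.73 and −1.22, and the fourth at 0.06. Hspbp1, an Hsp70 exchange factor, was at 977.2 and 596.5, a log2 ratio of −0.69. Its only probe set shares probes within a family, so the ratio could not be checked without such probe sets. Stress-inducible Bag3 was below the filter on both probe sets, at 0.54 and 1.01.

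Among cytosolic and nuclear isomerases, Fkbp1a (FKBP12), the target of the drugs FK506 and rapamycin, went from 2062 to 1552, a log2 ratio of −0.44, and its relative Fkbp1b from 643.9 to 707. The Hsp90-bound isomerases were on both sides: Fkbp4 (FKBP52) at −0.32 and 0.08 on its probe sets, Fkbp5 (FKBP51), known for its induction by glucocorticoids, at 1044 and 1247 (0.19), and Ppid (Cyp40) at −0.21. Nuclear Fkbp3 was at 0.41 and the splicing-associated Ppig at 0.53. Ppie, a spliceosomal cyclophilin, was 2-fold lower but below the filter, at 238.1 and 63.34.

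In the ER, 15 of 19 genes were above the filter, 8 higher and 7 lower, with a median of 0.03 and 0 of them 2-fold apart. The main chaperones of the ER lumen were near equal on the 2 arrays. Hspa5 (BiP), the ER Hsp70 and a standard readout of the unfolded protein response, had signals of 1777 and 1628. Hsp90b1 (Grp94) had signals of 2955 and 2755; its log2 ratio of −0.14 became 0.07 after loess scaling. Canx (calnexin), which retains glycoproteins until folded, was at 905.8 and 1062, and its probe sets gave 0.17 and 0.19.

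Calr (calreticulin), the soluble partner of calnexin, was measured by 1 probe set with signals of 16.29 and 14.93, far below the filter on both arrays. That signal gives no usable ratio. The J proteins of the ER were mostly a little higher, Dnajc1 at 0.45, Dnajb9 at 0.33 and Dnajc10 at 0.12, with Dnajb11, a BiP partner, at −0.18. The second probe sets of Dnajb9 and Dnajc1, below the filter, were at −0.17 and −0.51. None of the 4 probe sets of Dnajc3, an inhibitor of the stress kinase PERK, was above the filter, and their ratios ran both ways, from −0.90 to 0.56.

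Disulfide isomerases did not share a direction. Pdia3 (ERp57), which works with calnexin, was at 424.7 and 299.2 and Pdia4 (ERp72) at 682.9 and 496.2, log2 ratios of −0.46 and −0.45. Pdia5 was at 109.2 and 250.1, a log2 ratio of 0.75; it passed the filter through its mutant signal, so a higher value was built into its passing. Pdia6 (ERp5) was at −0.01 on its brightest probe set, with signals of 1018 and 1049, but at −0.49 and −1.29 on the others.

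Of the ER isomerases, 3 FKBPs and 1 cyclophilin were above the filter. Among the FKBPs, Fkbp7 was at 215.4 and 476.4 (0.86), Fkbp2 at 942.7 and 1276 (0.36) and Fkbp9 at 270 and 287.7 (0.03), and Fkbp9 became negative under quantile and loess scaling. The cyclophilin Ppib, which acts on procollagen among other clients, went from 2443 to 1634, a log2 ratio of −0.60 that ranged from −0.63 to −0.44 over the alternatives. Ppic, below the filter, was at 256.7 and 53.06, the lowest log2 ratio of the 82 genes at −1.38.

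**Figure D4:**
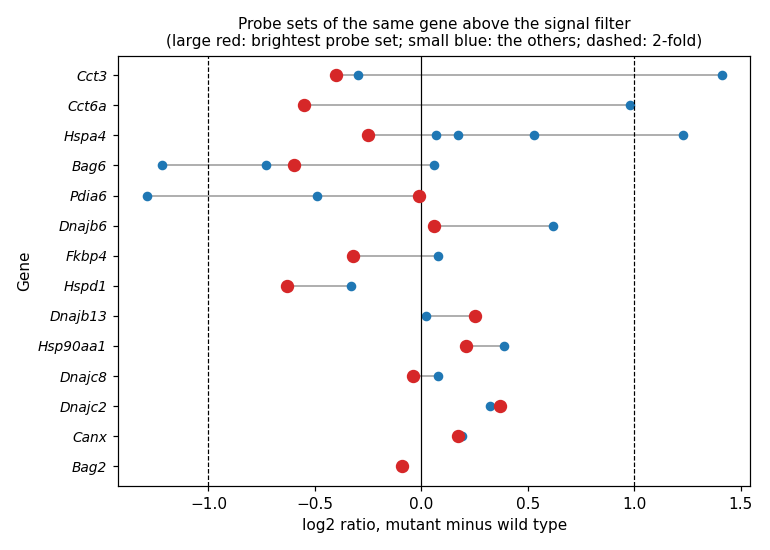
log2 ratio (mutant minus wild type) of each probe set above the filter for the 14 genes with at least 2 such probe sets, ordered by range; the large red point is the brightest probe set, small blue points are the others, and dashed lines mark 2-fold. Cct3, Cct6a, Hspa4, Bag6 and Pdia6 span more than 1 log2 unit, and the others less.

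In mitochondria 7 of 8 genes were above the filter, 3 higher and 4 lower, with a median of −0.18 (−0.04 after loess scaling). The matrix Hsp70, Hspa9 (mortalin), was equal at 2087 and 2162, a log2 ratio of 0.00. Hspd1 (Hsp60) was lower on both probe sets, at −0.63 and −0.33, and its ratio stayed between −0.65 and −0.42 over the alternatives, while its partner Hspe1 was at 0.09. Ppif (cyclophilin D), a regulator of the permeability transition pore, had the lowest ratio of the compartment, at 574.9 and 313.7 (−0.78), ranging from −0.92 to −0.58. Dnaja3 (Tid1) was at −0.48, Dnajc15 at 0.11, and Fkbp8, an outer membrane isomerase, at 3005 and 2722 (−0.18).

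Other membrane J proteins were Dnajc5 (cysteine string protein), a synaptic vesicle chaperone, at 655.3 and 430.4 (−0.57), the endosomal Dnajc13 at 315.5 and 178.2 (−0.66) and Dnajc4 at 0.09. The remaining genes below the filter were Dnajc11, of the mitochondrial inner membrane system, at 87.44 and 144.5, the ER isomerase gene Fkbp11 at 75.68 and 47.96 (−0.33), and Hspb11, which encodes a ciliary transport protein and matched by name only, at 99.72 and 81.61. Neuronal markers were lower on the same array, with a median log2 ratio of −0.73 for 8 genes (−0.53 after loess scaling, where 6 were lower); their part in the Dnajc5 value was not tested.

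Agreement between probe sets bounds what single ratios can carry. Of 23 genes with several probe sets, 14 had at least 2 above the filter; in 8 all had the same sign and in 6 the signs were mixed. The spread between the brightest 2 probe sets was 0.33 log2 units over these 14 genes, against 0.56 over all 894 genes with such pairs. The 2 values were not matched for signal, and the spread of all genes in the bright group was 0.46. Further probe sets of a gene do not enter the 0.33. With them, Cct3, Hspa4, Bag6 and Pdia6 spanned 1.81, 1.48, 1.28 and 1.28. Across single probe sets, 5 of 86 above the filter were 2-fold apart (5.81%), against 11.0% of all probe sets above it. The 5 were the Tcp1 probe set and 1 each of Cct3, Hspa4, Bag6 and Pdia6, and in those last 4 genes the brightest probe set was not 2-fold apart. The Hspa4 and Pdia6 probe sets each had 1 signal below the filter level, 119.3 in wild type and 87.17 in the mutant, so they passed only through the array where they were high.

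The wider folding network was read from fixed lists, which were written with earlier results of these arrays known and are described by their counts. Of 36 further ER folding and unfolded protein response genes on the array, 26 were above the filter, 8 higher and 18 lower, with a median of −0.18 and 0 past 2-fold. Of all genes above the filter, 2702 were higher and 2884 lower. The stress transcription factor gene Xbp1 was at 452.6 and 316.9 (−0.47), and the ratios of the 26 listed genes ran from −0.88 to 0.45. Listed genes below the filter ran wider, from −1.29 for Atf6 (224.7 and 47.79) to 1.48 for Trib3 (50.94 and 301). Of 11 mitochondrial import, folding and protease genes above the filter, 4 were higher and 7 lower, with a median of −0.18. The heat shock factor and cochaperone list had 11 genes above the filter, 4 higher and 7 lower, with a median of −0.02 that was 0.01 after quantile scaling. Its gene past 2-fold was Hsbp1, which encodes a binding partner of heat shock factor 1, at 1087 and 209.5 (−2.05). Of 8 prefoldin and tubulin cofactor genes, 5 were higher and 3 lower; the tubulin cofactor gene Tbcb was 2.69-fold lower, at 512.6 and 146.3. Its mutant signal was below the filter level, so a lower value was built into its passing. These calls, 1 of 11 and 1 of 8 genes, are near the 10.5% of all genes above the filter, and nothing is read from them about the lists. Of the other prolyl isomerases listed, 1 was above the filter, at 0.08.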

How the data were processed

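Total RNA of 1 wild type and 1 Pax6-/- cortex sample was hybridised to Affymetrix arrays, per the labels. The authors deposited 1 linear intensity per probe set and array, made with MAS5 per the submitters' processing notes, which leave its version and scaling target unstated. Signals ran from 1.0 to 97796 in wild type and to 67512 in the mutant, with medians of 237.3 and 283.7. The mean without the top and bottom 2% of signals was 500.2 on both arrays, so they share a global scale. Having 1 array per genotype limits the precision, and no p-value is given.

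Of 12488 probe sets, 66 are controls and 10833 others carry 1 gene symbol. All 115 member probe sets matched the mouse gene table by gene ID. A pseudocount of 81.5 (25th percentile of the signals) preceded log2, ratios were centred (a shift of 0.05), and the filter was the 40th percentile of mean log2 signal, which left 5587 genes. The technical spread is the SD of the difference between the brightest 2 probe sets of a gene, divided by the square root of 2.

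Any member may be named. Values in full were due for 2-fold genes, the 3 largest ratios and 2 brightest genes of each compartment, TRiC, genes with several probe sets passing the filter and landmarks such as Hspa5; of the other lists, 2-fold genes, Pax6 and Xbp1. The members, lists and compartments were chosen with earlier results of these data known. The steps were tested on simulated data with less noise than the technical spread, which checks the code and not the error rate on these arrays. Python 3.11.15, numpy 2.4.6, pandas 2.3.3, statsmodels 0.14.6 and matplotlib 3.10.9 were used. Alternatives were other scalings, pseudocounts, filters, probe set rules and thresholds.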

Additional observations from a re-analysis of the deposited data

How the results depend on the processing

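The count of genes at least 2-fold higher, 1 in the main setting, was 3 without a pseudocount (Tcp1, Fkbp7 and Pdia5), 0 with the 50th-percentile pseudocount, 4 at 1.5-fold and 0 at 3-fold. The count at least 2-fold lower, 0 in the main setting, was 1 after quantile scaling, 1 after loess scaling and 1 without a pseudocount (Dnajc17 each time), 3 with no filter (Hspa14, Ppie and Ppic) and 8 at 1.5-fold. The TRiC median was −0.21, and 0.23 when the probe sets of a gene were averaged, an average that takes in the higher Cct3 and Cct6a probe sets. The other medians ranged from −0.06 to 0.03 for all members, −0.06 to 0.05 for the cytosol and nucleus, −0.01 to 0.07 for the ER and −0.33 to −0.03 for mitochondria, so the sign held under all alternatives only for mitochondria. Of 565 recomputed ratios of single genes, 561 moved by less than the technical spread. The other 4 were Cct3 (0.24), Cct6a (0.21), Hspa4 (0.35) and Pdia6 (−0.60) with probe sets averaged. Many of the 561 could not move, so their number does not measure stability. Removing the filter leaves every ratio as it was, and the probe set rules leave most genes with 1 probe set unchanged. Over all genes, the counts at least 2-fold higher and lower, 282 and 306, were 447 and 437 without a pseudocount, 90 and 128 with the 50th-percentile pseudocount, 550 and 460 with no filter and 97 and 114 with the 60th-percentile filter. Beyond averaging, the cause of these shifts was not tested. No paired analysis was possible because each genotype has 1 array. No array could be left out for the same reason, and signals below the filter level limit what can be said of the 17 dim genes.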

Other observations

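Several members known mainly from testis gave signals above the filter in cortex. Dnajb13, a J protein of sperm tails and motile cilia, went from a wild type signal of 870 to a mutant signal of 1083. Another of its probe sets, also above the filter, was at 233.7 and 248.7. Dnajb3 had signals of 483.4 and 481.5 on one probe set and of 35.04 and 16.18 on the other, and Dnajb8 of 207.8 and 236. Hspa1l, at 106.8 and 206.5, Hspa2, at 21.47 and 81.83, and Cct6b, at 122.7 and 82.63, were below the filter. Whether these signals come from the named genes was not tested.

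Calr was not the only ER chaperone gene with signals far below the filter: Hyou1, an ER relative of Hsp110 named here after its values were seen, was at 6.202 and 6.762.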
